A study of Mus musculus with 14 samples.

Results

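The interaction of Irx3 loss and Irx5 loss was measured in mouse embryonic hearts, as the part of the change in double mutants that the sum of the separate losses leaves over. It was computed for all 21776 probe sets that the platform's probe table pairs with exactly 1 gene symbol, out of 28763 in the value table, and these stand for 19931 genes. All 14 arrays of the series entered it. Affymetrix Mouse Gene 1.0 ST arrays were hybridized with cDNA amplified from 1 ng of total RNA of hearts at midgestation, E12.5. Of the 4 genotypes, Irx5+/- served as the reference with 3 arrays, loss of Irx3 alone was Irx3-/-;Irx5+/- with 4, full loss of Irx5 was Irx5-/- with 3, and the double mutants, Irx3-/-;Irx5-/-, had 4. Every embryo carried at least 1 mutant Irx5 allele and no wild type was among the groups, so the Irx5+/- reference kept 1 working Irx5 copy and its Irx3 genes. Whether arrays of a genotype come from different embryos is not stated in the labels. The p-values therefore rest on the spread of these samples alone, which may be technical. The title of the series speaks of cooperative and antagonistic roles of both genes, and the contrast asks at which genes the losses added up, exceeded their sum, fell short of it or opposed each other.

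Irx3 and Irx5 encode homeodomain transcription factors of the Iroquois family that lie near each other, with Irx6, in a cluster on mouse chromosome 8. In the adult heart Irx5 is known for repressing the potassium channel gene Kcnd2 across the ventricular wall, and Irx3 for acting in the fast conduction system, where it affects the connexin genes Gja5 and Gja1. Loss of a single Iroquois gene is often masked by its relatives, which is why an interaction term can carry information that single mutants do not.

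The quantities are on the log2 scale of the deposited intensities, where 1 unit is a doubling. The averaged Irx3 loss is the mean of its effect in Irx5+/- and in Irx5-/- hearts. The averaged Irx5 loss is the mean of its effect with and without Irx3. The interaction is the observed mean in double mutants minus the additive level, which is the mean of Irx3-/-;Irx5+/- plus the mean of Irx5-/- minus the reference mean. Errors of differences are standard errors (SE) from limma, and a call means a p under 0.05 after Benjamini-Hochberg adjustment over all 21776 probe sets.

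Array medians ran from 8.04 to 8.14. The mean level of 31 sarcomere genes varied widely within the reference, where arrays stood at 0.09, -0.60 and -1.52 relative to the mean of all arrays. Irx5-/- replicate 2 stood at 0.82 and the double mutants ran from 0.16 to 0.61. Mean levels per array ran from 9.66 to 12 for the sarcomere list, from 7.30 to 7.52 for liver genes and from 7.12 to 7.52 for lung and foregut genes. Intensities of different probe sets cannot be ranked on an array, so these values give no measure of tissue purity. For Irx3-/-;Irx5+/- replicate 4, a line of the description names Irx5-/- embryos while the title and genotype name Irx3-/-;Irx5+/-. Its Irx3 signal (8.17) lay between the other arrays of its group (7.87 to 7.93) and the reference (8.43 to 8.53). It also lay within the range of the Irx5-/- arrays, the genotype named in that line. This does not settle its genotype, since where these probes lie relative to the deletion is not known. It is called the array labelled Irx3-/-;Irx5+/- replicate 4 below. Counts for the interaction, the sort and the averaged Irx5 loss, and the interactions of Hmcn1 and Bmp10, are given with and without it. Most other values of genes and lists include it, some with the range when any 1 array is left out.

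No probe set was called for the interaction (0 of 21776, 0%). The smallest unadjusted p was 9.3e-05 and the smallest adjusted p was 1. At an unadjusted p under 0.05 there were 890 probe sets (4.09%), of which 421 (1.93%) lay above 0 and 469 (2.15%) below 0. The median interaction over all genes was 0.00 and 50.3% of genes lay above 0. Without the array labelled Irx3-/-;Irx5+/- replicate 4, 0 were called and 786 lay under an unadjusted p of 0.05, of which 644 were among the 890. The median SE of the interaction was 0.20. An unadjusted p under 0.05 needs a departure well over 1 SE, and a call over 21776 probe sets needs a still larger one. For a typical gene with 3 or 4 arrays a group, departures well above 0.20 could thus go uncalled. The 0 calls do not show that interactions are absent. The values that follow therefore describe the genes with the smallest p, none of which passed the adjusted threshold in limma.

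**Figure D1:**
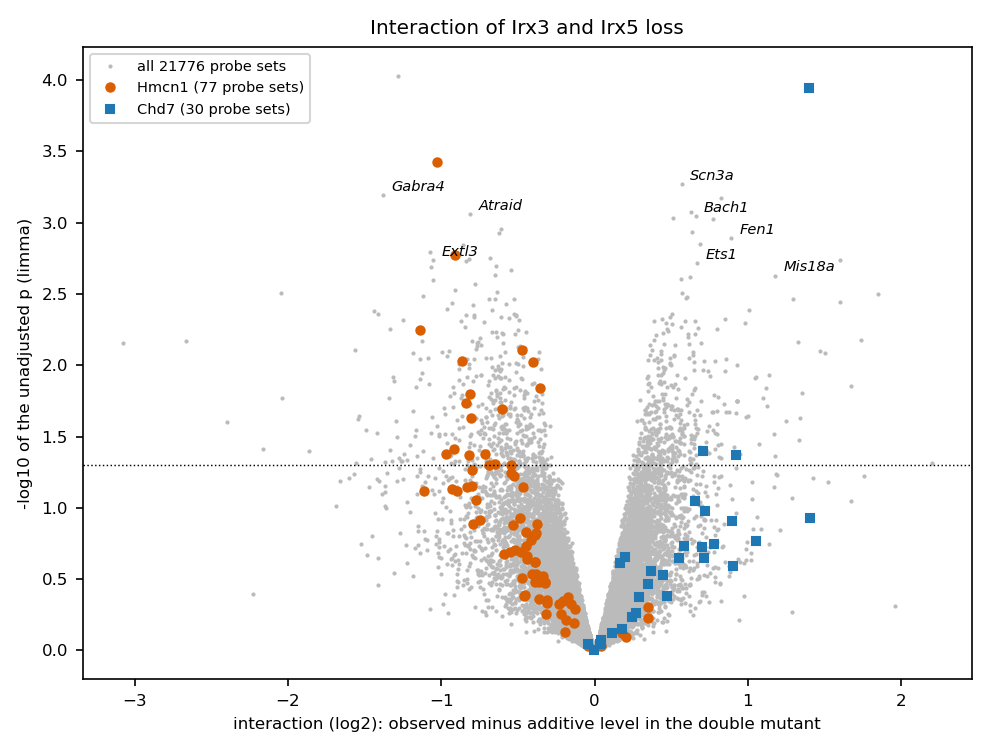
Interaction on the log2 scale (horizontal axis) against -log10 of the unadjusted limma p-value (vertical axis) for 21776 probe sets, with the 77 Hmcn1 and 30 Chd7 probe sets marked and a dotted line at the unadjusted threshold. Hmcn1 points lie mostly to the left (72 of 77 below 0) and Chd7 points mostly to the right (28 of 30 above 0), and 0 points passed the adjusted threshold.

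Among genes above additivity, Chd7, which encodes a chromatin remodeller needed for heart development, had the smallest p of those named by rank. Its leading probe set read 8.20, 8.71 and 8.43 in Irx5+/- hearts, 8.24, 7.48, 7.90 and 7.92 in Irx3-/-;Irx5+/- hearts, 7.71, 7.88 and 8.14 in Irx5-/- hearts and 8.87, 8.63, 8.98 and 8.50 in double mutants. Each single loss lay lower on average, yet every double mutant lay above every array of either single loss and overlapped the reference. The additive level was 7.35 and the observed mean 8.75 ± 0.22 (SD, n = 4), an interaction of 1.40 ± 0.26 with a 95% confidence interval from 0.84 to 1.96 and a limma adjusted p of 1. It ran from 1.26 to 1.52 when any 1 array was left out. Of the 30 Chd7 probe sets, which share the transcript, 28 had an interaction above 0, with a median of 0.46. At an unadjusted p under 0.05, 3 of them were higher, against 1.93% of all probe sets. The leading probe set was the one of the 30 with the smallest p. The brightest had an interaction of 0.37 ± 0.33 (limma unadjusted p = 0.279).

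Bach1, a transcription factor that represses haem and antioxidant genes, followed the same order. It read 9.78, 9.93 and 10.12 in the reference, 9.70, 9.64, 9.61 and 9.63 in Irx3-/-;Irx5+/-, 9.80, 9.66 and 9.58 in Irx5-/- and 10.25, 10.11, 9.85 and 9.97 in double mutants. Again the double mutants lay above every array of both single losses and overlapped the reference, with an interaction of 0.66 ± 0.16. Scn3a, a voltage-gated sodium channel gene, differed from these in that Irx5-/- hearts alone stood apart. Its values were 5.70, 5.87 and 5.78 in the reference, 5.63, 5.63, 5.52 and 5.70 in Irx3-/-;Irx5+/-, 5.22, 5.36 and 5.40 in Irx5-/- and 5.70, 5.87, 5.64 and 5.71 in double mutants. Every Irx5-/- array lay below all the others, and with Irx3 lost as well the level was back in the reference range (interaction 0.57 ± 0.13).

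In a further set the Irx3-/-;Irx5+/- group stood lowest. Fen1, a flap endonuclease of DNA replication, read 8.60, 8.62 and 8.52 in the reference, 7.77, 7.85, 8.08 and 7.61 in Irx3-/-;Irx5+/-, 8.29, 8.24 and 8.15 in Irx5-/- and 8.13, 8.54, 8.05 and 8.72 in double mutants. Irx3-/-;Irx5+/- arrays lay below every reference and Irx5-/- array and overlapped the double mutants at 1 array (interaction 0.89 ± 0.22). Mis18a, a factor that loads centromeric histone, read 9.33, 8.27 and 8.29, then 7.76, 7.31, 7.82 and 7.81, then 7.99, 8.34 and 8.21, then 8.57, 8.37, 8.25 and 8.43 in the same order of groups. Here all 4 Irx3-/-;Irx5+/- arrays lay below every other array, and the interaction of 1.18 ± 0.31 was 0.83 without Irx5+/- replicate 1, which read 9.33. Tacc3, a spindle protein gene, had an interaction of 0.64 ± 0.15.

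Ets1, an endothelial and neural crest transcription factor, was an example in which each loss had a lower mean and their combination went no further. Its signal was 10.69, 10.49 and 10.51 in the reference, 10.13, 9.98, 10 and 10.27 in Irx3-/-;Irx5+/-, 9.80, 9.77 and 9.87 in Irx5-/- and 9.99, 10.32, 9.78 and 9.94 in double mutants. The reference lay above all other arrays, and the double mutants spanned the range of both single losses. Its averaged Irx5 loss was -0.42 ± 0.09 (limma adjusted p = 0.083) and its interaction 0.67 ± 0.17. Across the 30 endothelial and endocardial genes listed, the averaged Irx5 loss was below 0 for all 30 and at an unadjusted p under 0.05 for 22, with a median of -0.58 against -0.03 over all genes, of which 7.08% were lower at that p. Their interaction had a median of 0.10, with 16 of 30 above 0. In whole hearts, fewer endothelial cells and less RNA per endothelial cell cannot be told apart.

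The genes below additivity were picked for a low interaction, whose errors have correlations of -0.707 and -0.756 with those of the single losses of Irx3 and Irx5 against the reference. High levels after single losses are therefore favoured by the choice, and the same holds in reverse for the genes above additivity. Gabra4, a GABA-A receptor subunit gene, read 6.59, 6.94 and 6.69 in the reference, 7.39, 7.90, 7.25 and 7.36 in Irx3-/-;Irx5+/-, 8.04, 7.20 and 7.26 in Irx5-/- and 6.69, 7.28, 6.66 and 6.80 in double mutants. Every array of a single loss lay above the reference, while 3 of the 4 double mutants lay within the reference range. Its interaction was -1.38 ± 0.31 (limma adjusted p = 1), from -1.53 to -1.11 with 1 array left out. Atraid, named for a factor of retinoic acid-induced differentiation, was alike, at 9.96, 10.11 and 9.71, then 10.57, 10.22, 10.53 and 10.29, then 10.66, 10.46 and 10.22, then 10.07, 9.96, 10.17 and 10.22. The double mutants overlapped the reference and reached only the lowest arrays of the single losses (interaction -0.81 ± 0.19).

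Extl3, a heparan sulfate glycosyltransferase gene, instead stayed high in double mutants. It read 8.53, 9.0 and 8.31 in the reference, 9.56, 9.27, 9.33 and 9.44 in Irx3-/-;Irx5+/-, 9.52, 10.28 and 9.62 in Irx5-/- and 9.38, 9.45, 9.79 and 9.57 in double mutants. All 11 mutant arrays lay above the reference, and the double mutants overlapped each single loss at 9.54 on average against an additive level of 10.60 (interaction -1.05 ± 0.27). The interaction was -0.81 without Irx5-/- replicate 2. Of the other genes of this rank, Ctnnal1 (an alpha-catenin relative) had an interaction of -1.07 ± 0.27, Gstm5 (a glutathione transferase) of -0.84 ± 0.22, Dapp1 (a signalling adaptor) of -0.86 ± 0.21, Rhoq (a small GTPase) of -0.64 ± 0.17, Tbck of -0.68 ± 0.17, Bbs2 (a subunit of the ciliary BBSome) of -0.62 ± 0.15 and Lrig2 of -0.61 ± 0.15.

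Hmcn1, the gene of the large extracellular matrix protein hemicentin 1, showed a lower level after both losses and a double-mutant level under their sum. The brightest of its 77 probe sets read 12.80, 12.81 and 12.79 in the reference, 12.55, 12.49, 12.70 and 12.67 in Irx3-/-;Irx5+/-, 12.53, 12.41 and 12.56 in Irx5-/- and 12.05, 11.93, 11.79 and 12.02 in double mutants. The double mutants lay below every other array, the reference above every other, and the single losses between them overlapped each other. In double mutants against the reference Hmcn1 fell by 0.85 ± 0.09 (limma adjusted p = 0.0034), and the adjusted p ran from 0.00377 to 0.0228 with 1 array left out. That comparison called 16 probe sets (0.0735% of 21776), and 7 of them were of Hmcn1. The count was 8 without Irx5+/- replicate 2, 9 without Irx3-/-;Irx5-/- replicate 4, 25 without replicate 2 of that group, 58 without Irx5+/- replicate 1 and 84 without Irx5-/- replicate 2, and Hmcn1 gave 5 to 17 of the calls in the leave-outs. The interaction of this probe set was -0.36 ± 0.13 (95% confidence interval -0.63 to -0.08, adjusted p = 1).

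The probe set of Hmcn1 with the smallest interaction p gave a sharper form of this order. It read 11.35, 11.57 and 11.29 in the reference, 11.63, 11.45, 11.77 and 11.87 in Irx3-/-;Irx5+/-, 11.83, 11.18 and 11.60 in Irx5-/- and 10.98, 10.80, 10.62 and 10.73 in double mutants. Here the other 3 groups overlapped and the double mutants lay below all of them, an interaction of -1.03 ± 0.22. Over the 77 probe sets, which measure the same transcript and are not replicates, 72 had an interaction below 0. The median was -0.44, with a range from -1.14 to 0.35, and 17 were lower at an unadjusted p under 0.05, against 2.15% of all probe sets. With 1 array left out, 67 to 75 were below 0, 11 to 25 were at that p and the median ran from -0.56 to -0.35. Without the array labelled Irx3-/-;Irx5+/- replicate 4, 70 were below 0, with a median of -0.39. Loss of Irx3 had a median of -0.12 over these probe sets in Irx5+/- hearts and of -0.58 in Irx5-/- hearts, and loss of Irx5 a median of -0.33 with Irx3 and of -0.81 without it. Those values share arrays and are the interaction in another form.

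**Figure D2:**
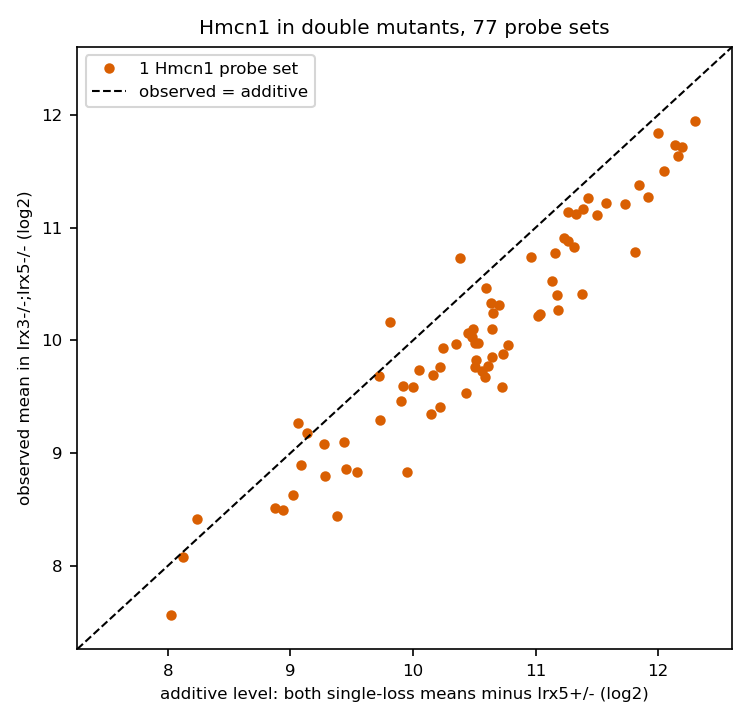
Observed mean in Irx3-/-;Irx5-/- hearts (vertical axis, log2 intensity) against the additive level from the single losses (horizontal axis, log2 intensity), 1 point per Hmcn1 probe set, with a dashed line where they are equal. Of the 77 points, 72 lie below the line, with a median distance of -0.44.

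The averaged effect of each loss was then used to sort the probe sets. With 3, 4, 3 and 4 arrays the errors of both averaged losses have a correlation of 0.00 by design, if arrays vary independently and equally. Each array still enters both averaged losses. A deviation of 1 array that many genes share can therefore move the counts of same and opposite direction. The averaged Irx3 loss called 0 probe sets (0%), with 1087 (4.99%) at an unadjusted p under 0.05. The averaged Irx5 loss called 10 (0.0459%), with 3459 (15.9%) at that p. Of these 10, 7 fell (0.0321%), namely 6 Hmcn1 probe sets and Gm4788, and 3 rose (0.0138%), namely both Fdft1 probe sets and 1 of 2 of Plscr1. Without Irx3-/-;Irx5+/- replicate 3, without the array labelled replicate 4 of that group or without Irx5-/- replicate 3, 0 were called, and without Irx3-/-;Irx5-/- replicate 2, 38 were called. The count was 16 without Irx5+/- replicate 1, 17 without Irx3-/-;Irx5+/- replicate 1, 2 without Irx5-/- replicate 2, 3 and 4 without Irx5+/- replicates 2 and 3, and 5 without Irx5-/- replicate 1 or Irx3-/-;Irx5-/- replicate 4.

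At an unadjusted p under 0.05 in both averaged losses, 318 probe sets (1.46%) had effects of the same direction and 40 (0.184%) of opposite direction. Of the 318, 207 (0.951%) were higher and 111 (0.510%) lower in both averaged losses, and 37 of the lower ones were Hmcn1 probe sets. Each averaged loss includes the double mutants, so a member need not have changed in that direction after each single loss. The Hmcn1 probe set with the smallest interaction p was in the lower class. Its means were 11.404 in the reference, 11.680 in Irx3-/-;Irx5+/-, 11.535 in Irx5-/- and 10.783 in double mutants. With 1 probe set per gene the counts were 248 genes of the same direction (1.24%; 184 higher, 0.923%, and 64 lower, 0.321%) and 36 of opposite direction (0.181%). At an unadjusted p under 0.01 in both, they were 52 and 3 probe sets. By sign alone and at any p, 12140 probe sets had the same direction and 9636 the opposite.

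The size of this excess rested on single arrays. Without the array labelled Irx3-/-;Irx5+/- replicate 4 the sort gave 241 and 39 probe sets, of which 220 and 26 were those found with it. Leaving out other arrays moved the same-direction count from 163 (without Irx5-/- replicate 3) to 570 (without Irx5+/- replicate 1), with 185 without Irx5-/- replicate 1. The opposite-direction count moved from 15 (without Irx5+/- replicate 1) to 93 (without Irx5-/- replicate 3), with 89 without Irx5-/- replicate 2 and 25 and 22 without Irx5+/- replicates 2 and 3. In all 14 of these sorts the same-direction count was the larger. By sign alone the order turned without Irx5-/- replicate 3, to 10563 of the same and 11213 of opposite direction. Sorted by the single losses against the reference, 536 probe sets had the same direction and 1 the opposite, but these share the 3 reference arrays, which gives their errors a correlation of 0.535.

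Within the 318 probe sets of the same direction, the interaction had the sign of the losses in 101, so that the double mutant went beyond the sum, and the opposite sign in 217, so that it fell short of it. Of the 101, 36 were probe sets of Hmcn1, and in a fit with 1 probe set per gene the split was 63 and 191 of 254. At an unadjusted p under 0.05 for the interaction as well, there were 18 of the 101 and 29 of the 217, and 10 and 27 with 1 probe set per gene. With every probe set of a gene counted, the split was 153 and 178 of 331 without Irx5-/- replicate 2. Without Irx5+/- replicate 1 it was 100 and 470 of 570. Between the errors of the interaction and of the averaged Irx5 loss the design gives a correlation of -0.143.

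**Figure D3:**
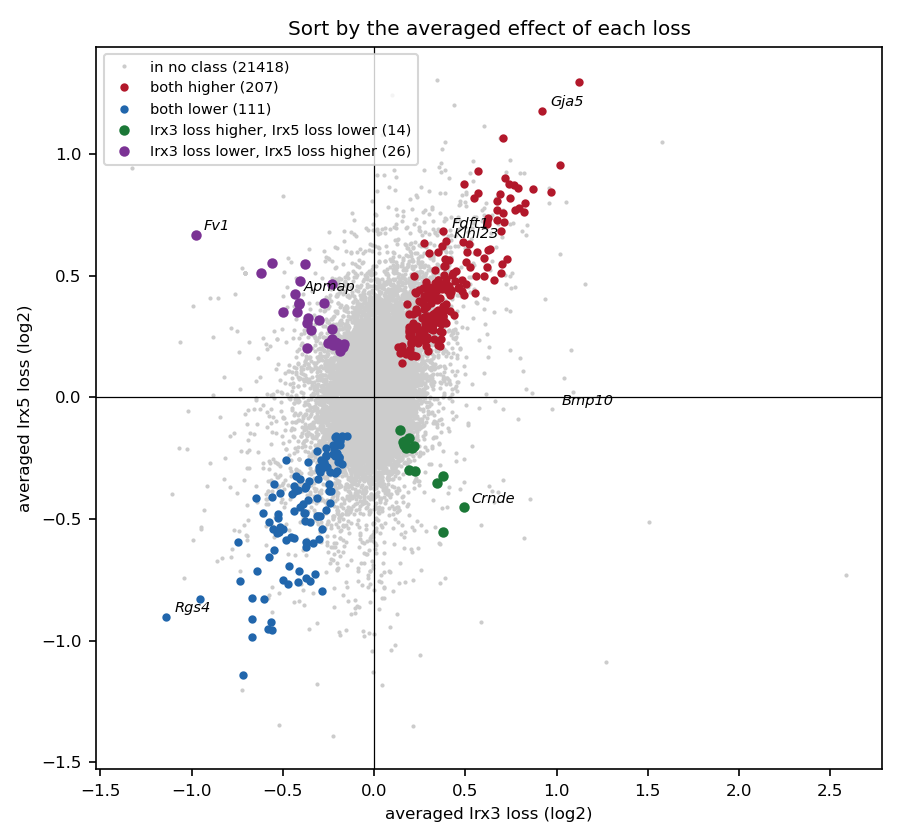
Averaged Irx3 loss (horizontal axis, log2) against averaged Irx5 loss (vertical axis, log2) for 21776 probe sets, with colours for the classes at an unadjusted p under 0.05 in both. The same-direction classes (207 and 111 points, upper right and lower left) hold more points than the opposite-direction classes (14 and 26).

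Among genes higher in both averaged losses, Fdft1, which encodes squalene synthase of the cholesterol pathway, had the firmest values. It read 9.37, 9.32 and 9.61 in the reference, 10.30, 10.01, 9.82 and 9.92 in Irx3-/-;Irx5+/-, 10.20, 10.42 and 10.35 in Irx5-/- and 10.30, 10.49, 10.53 and 10.66 in double mutants. The reference lay below all mutant arrays, and neighbouring mutant groups overlapped. Against the reference Fdft1 rose by 1.06 ± 0.13 in double mutants, 2.08-fold (limma adjusted p = 0.00558, from 0.0039 to 0.0451 with 1 array left out). Its averaged Irx5 loss was 0.68 ± 0.09 (adjusted p = 0.0216) and its averaged Irx3 loss 0.38 ± 0.09 (adjusted p = 0.955). The call for Irx5 loss was lost without Irx5+/- replicate 2, either of Irx3-/-;Irx5+/- replicates 3 and 4 or either of Irx5-/- replicates 2 and 3, with adjusted p up to 0.0841. The double mutants lay 0.40 ± 0.18 below the additive level. Elsewhere in the cholesterol list (21 genes) Lss, lanosterol synthase, also lay below it (interaction -0.64 ± 0.20) and Mvk, mevalonate kinase, above it (0.40 ± 0.12).

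Klhl23, an adaptor gene of the Kelch family, read 8.34, 8.60 and 8.60 in the reference, 9.45, 8.90, 9.35 and 9.19 in Irx3-/-;Irx5+/-, 9.36, 9.80 and 9.25 in Irx5-/- and 9.52, 9.68, 9.48 and 9.51 in double mutants. All mutant arrays lay above the reference, and the double mutants lay above Irx3-/-;Irx5+/- but within the range of Irx5-/-. In double mutants it rose 2.05-fold (1.04 ± 0.15, limma adjusted p = 0.0214), a call lost without Irx5+/- replicate 2 or 3 or Irx3-/-;Irx5-/- replicate 1 or 4 (adjusted p up to 0.0694). Its interaction was -0.63 ± 0.21: loss of Irx3 gave 0.71 in Irx5+/- hearts and 0.08 in Irx5-/- hearts. Fat3, an atypical cadherin gene, rose by 1.65 ± 0.27 in double mutants at 1 of its 15 probe sets (adjusted p = 0.0442), and that call held in 3 of 14 leave-outs.

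Other genes at the top of this class were Gja5, Myoz2, Myl7, Apobec2, Sh3bgr and Gca. Gja5, a connexin gene of atrium, trabeculae and fast conduction tissue, read 9.99, 8.31 and 7.38 in the reference, 10.63, 9.74, 9.92 and 10.08 in Irx3-/-;Irx5+/-, 9.99, 10.97 and 10.09 in Irx5-/- and 10.23, 10.84, 11.14 and 10.44 in double mutants. Irx5+/- replicate 1 lay within the single losses and the other reference arrays lay far below all mutants. Its averaged Irx3 loss was 0.92 ± 0.34, its averaged Irx5 loss 1.18 ± 0.34 (limma adjusted p = 0.157) and its interaction -1.22 ± 0.67, from -1.94 to -0.63 with 1 array left out. Averaged Irx3 and Irx5 losses were 1.02 and 0.95 for Myoz2 (a Z-disc protein), 0.79 and 0.78 for Myl7 (the atrial myosin light chain), 0.97 and 0.84 for Apobec2, 0.87 and 0.86 for Sh3bgr and 1.12 and 1.30 for Gca, none with an adjusted p under 0.05.

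Sarcomere signal moved with these genes, and Myoz2 and Myl7 are themselves members of the sarcomere list. In Myoz2 the reference arrays read 10.35, 8.74 and 7.54, and the sarcomere list stood at 0.09, -0.60 and -1.52 in the same 3 arrays. With each array's sarcomere level as a term in the fit, the averaged Irx5 loss of Myoz2 was -0.03 and the interaction of Gja5 was -0.61. Myoz2 is part of the mean used as that term, which shrinks its effect by construction, while Gja5 is not in that list. The part of the sarcomere level in the same-direction class was not tested beyond that fit. In it 311 probe sets had the same direction and 21 the opposite, and 85 of the 318 were kept. Fdft1 and Klhl23 had interactions of -0.38 and -0.61 in it, close to those without the term, although no probe set was then called in double mutants.

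H3c15, a replication-dependent histone gene, was a member of this class whose double mutants lay beyond the sum. It read 5.52, 4.64 and 4.67 in the reference, 4.90, 5.70, 5.22 and 5.07 in Irx3-/-;Irx5+/-, 5.18, 5.07 and 5.33 in Irx5-/- and 7.18, 6.24, 6.03 and 6.83 in double mutants. Only the double mutants stood apart, above every other array, with an interaction of 1.10 ± 0.40. Tbx3, a repressor that specifies the conduction system and atrioventricular canal, had the same form. Its values were 8.20, 7.98 and 8.12, then 8.18, 8.01, 8.24 and 8.32, then 7.95, 8.27 and 7.90, and 8.76, 8.62, 8.94 and 8.36 in double mutants, which again lay above every other array. The interaction of Tbx3 was 0.55 ± 0.19 and its difference between double mutants and reference 0.57 ± 0.14 (limma adjusted p = 0.119). Msx2, a homeobox gene of cushion mesenchyme, had an interaction of 0.60 ± 0.17.

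Of the genes lower in both averaged losses, Rgs4, a regulator of G-protein signalling, led by the size of its averaged effects. It read 9.49, 8.78 and 9.48 in the reference, 7.29, 7.71, 8.64 and 7.82 in Irx3-/-;Irx5+/-, 9.26, 7.08 and 7.97 in Irx5-/- and 6.81, 7.32, 7.04 and 7.65 in double mutants. The reference lay above all Irx3-/-;Irx5+/- and double-mutant arrays, while Irx5-/- replicate 1 lay inside it. Its averaged losses were -1.14 ± 0.30 for Irx3 and -0.90 ± 0.30 for Irx5 (limma adjusted p = 0.984 and 0.200) and its interaction 0.48 ± 0.61. Adamts9, a matrix protease gene, had averaged losses of -0.74 and -0.75 at its leading probe set, and all 6 of its probe sets lay below 0 for each loss, with 2 lower at an unadjusted p under 0.05 for each, against 2.73% and 7.32% of all probe sets. Ptchd1 had averaged losses of -0.67 and -0.91 at 1 of 2 probe sets, with levels of 3.87 to 6.40. At its brighter probe set they were -0.08 and -0.13, neither at an unadjusted p under 0.05.

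Irx3 itself lay in this class. Its signal was 8.43, 8.53 and 8.44 in the reference, 7.87, 7.89, 7.93 and 8.17 in Irx3-/-;Irx5+/-, 8.25, 8.14 and 8.19 in Irx5-/- and 7.86, 7.69, 7.75 and 7.60 in double mutants. Double mutants lay below all other arrays and the reference above all others, so Irx3 signal was lower in Irx5-/- hearts that keep their Irx3 genes. In double mutants Irx3 fell by 0.74 ± 0.10 (limma adjusted p = 0.00825, and 0.0617 without Irx5+/- replicate 2), its averaged Irx5 loss was -0.26 ± 0.07 (adjusted p = 0.137) and its interaction 0.03 ± 0.14. Irx5 signal separated the genotypes less, at 8.19 to 8.41 in the reference, 8.21 to 8.31 in Irx3-/-;Irx5+/-, 7.86 to 8.34 in Irx5-/- and 7.52 to 8.43 in double mutants. Its averaged Irx5 loss was -0.25 ± 0.13 (adjusted p = 0.348). The place of the Irx3 and Irx5 probes relative to the deletions is not known here, so neither signal is a check of the genotype or a plain measure of expression in the null hearts. The neighbouring Irx6 had an averaged Irx5 loss of -0.32 ± 0.10 (adjusted p = 0.176), with every Irx5-/- array (7.30 to 7.56) below the reference and Irx3-/-;Irx5+/- arrays (7.60 to 8.13). The double mutants, at 7.40, 7.85, 7.60 and 7.39, overlapped all 3 other groups. Interactions of Irx1, Irx2, Irx4, Irx5 and Irx6 lay between -0.02 and 0.21, each within its error of 0.18 to 0.46 or, for Irx1, just above it.

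Opposite averaged effects of the losses were rarer. There were 14 probe sets higher for the averaged Irx3 loss and lower for the averaged Irx5 loss, and 26 the other way. Crnde, a long non-coding RNA gene next to Irx5 on chromosome 8, led the former. It read 7.51, 7.91 and 7.84 in the reference, 8.35, 7.92, 9.08 and 8.16 in Irx3-/-;Irx5+/-, 7.17, 7.46 and 7.67 in Irx5-/- and 8.17, 7.64, 7.83 and 7.55 in double mutants. Irx3-/-;Irx5+/- arrays lay above all reference and Irx5-/- arrays, and the double mutants overlapped all 3 other groups, at 0.04 ± 0.24 from the reference. Its averaged losses were 0.49 ± 0.17 for Irx3 and -0.45 ± 0.17 for Irx5 (limma adjusted p = 0.984 and 0.234), with an interaction of -0.26 ± 0.34. Of the 12 genes listed beside the Irx3, Irx5 and Irx6 cluster, 1 (Crnde) was in an opposite-direction class and 0 in a same-direction class, where all genes had 0.181% and 1.24%.

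Zfp398, a zinc finger gene, gave the tightest opposite pattern. Its values were 7.79, 7.60 and 7.79 in the reference, 8.07, 8.09, 8.45 and 7.96 in Irx3-/-;Irx5+/-, 7.37, 7.53 and 7.43 in Irx5-/- and 7.82, 7.74, 7.59 and 7.97 in double mutants. Every Irx5-/- array lay below all others, Irx3-/-;Irx5+/- arrays lay above the reference, and the double mutants had a mean of 7.78 against 7.73 in the reference. The averaged losses were 0.38 ± 0.09 and -0.32 ± 0.09 (limma adjusted p = 0.955 and 0.142) and the interaction -0.08 ± 0.18. Zfp991 (0.38 and -0.55), Syap1 (0.22 and -0.30) and Oaf (0.19 and -0.30) had the same signs, with interactions from -0.05 to 0.03.

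In the reverse class Fv1, a retroviral restriction gene, had the largest effects, with an averaged Irx3 loss of -0.98 ± 0.31 and an averaged Irx5 loss of 0.67 ± 0.31. It read 9.63, 9.20 and 10.29 in the reference, 8.05, 9.31, 7.93 and 8.53 in Irx3-/-;Irx5+/-, 10.96, 9.39 and 9.95 in Irx5-/- and 9.63, 9.96, 8.53 and 9.48 in double mutants. Irx3-/-;Irx5+/- and Irx5-/- arrays did not overlap, and the reference and double mutants lay across both. Apmap, a membrane protein gene of adipocytes, read 8.18, 8.83 and 8.62, then 8.14, 8.23, 8.08 and 8.19, then 9.19, 9.25 and 8.62, then 8.45, 8.75, 8.49 and 8.45. Double mutants lay at 8.53 on average and the reference at 8.54, with averaged losses of -0.43 ± 0.12 and 0.42 ± 0.12. Dscc1 (-0.41 and 0.39), Amn1 (-0.41 and 0.39), Scpep1 (-0.38 and 0.55) and Vpreb1 (-0.41 and 0.48) had the same signs. Spred2 did so at 1 of 2 probe sets (-0.42 and 0.35), and the other lay at 0.02 for Irx3 loss and 0.69 for Irx5 loss. None of these 11 genes passed the adjusted threshold for either loss.

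**Figure D4:**
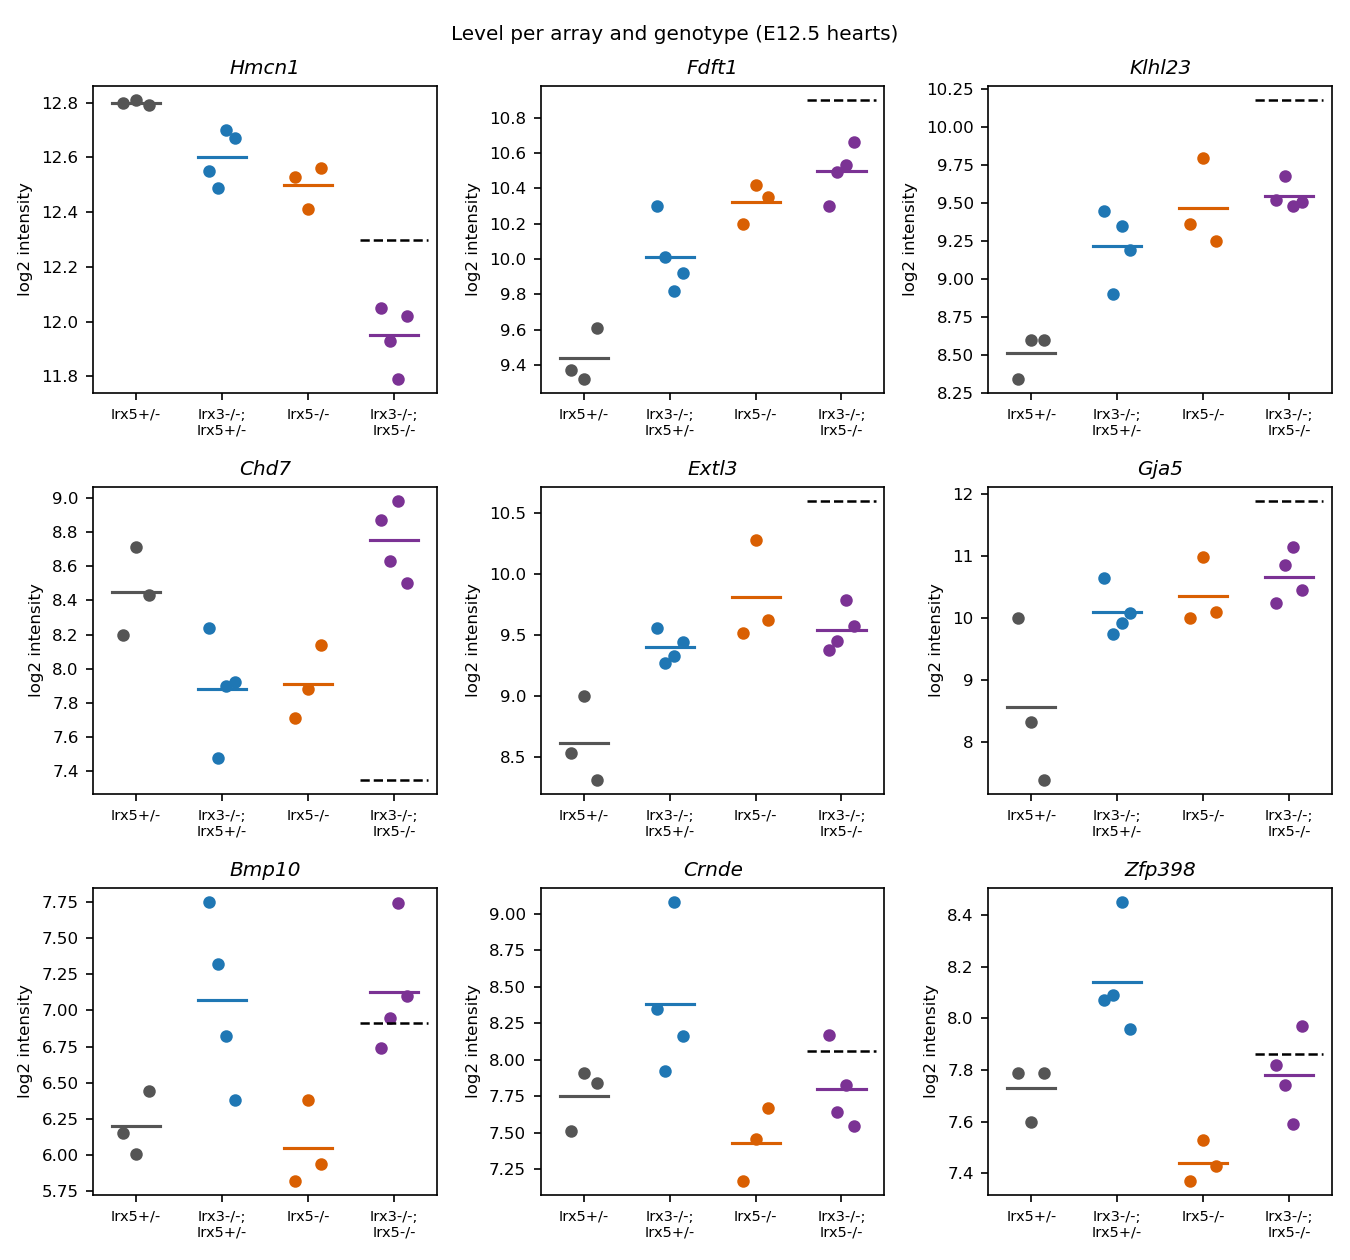
Log2 intensity (vertical axes, scale set per gene) on each array by genotype, with a solid line at each group mean and a dashed line at the additive level for double mutants. Double mutants lie below the dashed line for Hmcn1, Fdft1, Klhl23, Extl3 and Gja5 and above it for Chd7, and within 0.26 of it for Bmp10, Crnde and Zfp398.

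Some genes followed a single loss whatever the state of the other gene. Gm4788, a predicted gene on chromosome 1 chosen after its values were seen, read 6.53, 6.97 and 6.88 in the reference and 6.77, 6.78, 6.82 and 6.76 in Irx3-/-;Irx5+/-, against 5.80, 6.09 and 6.09 in Irx5-/- and 5.81, 6.25, 6.12 and 5.82 in double mutants. The array labelled Irx3-/-;Irx5+/- replicate 4 lay with the Irx5+/- arrays. That place is favoured by choosing the gene from a fit that counted this array there, so it does not settle the array's genotype. For Gm4788 the Irx5-/- and double-mutant arrays lay below all others. It fell by 0.79 ± 0.09 for Irx5 loss (limma adjusted p = 0.0177, and up to 0.0631 in the leave-outs, with the call lost without Irx3-/-;Irx5+/- replicate 3, the array labelled replicate 4 of that group or Irx5-/- replicate 3), with an averaged Irx3 loss of 0.00 ± 0.09 and an interaction of 0.01 ± 0.19. Plscr1, a phospholipid scramblase gene also chosen after its values were seen, rose by 0.70 ± 0.10 for Irx5 loss at 1 of 2 probe sets (adjusted p = 0.0278), a call that held in 3 of 14 leave-outs, with an interaction of -0.08 ± 0.20.

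Bmp10, which encodes a cardiac growth factor of trabecular and atrial muscle, followed Irx3 loss. It read 6.15, 6.01 and 6.44 in the reference, 7.75, 7.32, 6.82 and 6.38 in Irx3-/-;Irx5+/-, 5.82, 6.38 and 5.94 in Irx5-/- and 6.74, 6.95, 7.74 and 7.10 in double mutants. Double mutants lay above every reference and Irx5-/- array. The array labelled Irx3-/-;Irx5+/- replicate 4 (6.38) lay within the reference range and level with the highest Irx5-/- array, apart from the rest of its group. The averaged Irx3 loss was 0.98 ± 0.21, 1.97-fold (limma adjusted p = 0.955), the averaged Irx5 loss -0.05 ± 0.21 and the interaction 0.22 ± 0.42, or -0.01 without that array. Kcnd2 and Kcnip2, the channel and accessory subunit of the transient outward current, had interactions of -0.21 ± 0.26 and -0.22 ± 0.18 and averaged Irx5 losses of -0.10 ± 0.13 and -0.01 ± 0.09.

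The promoters of Bmp10, Crnde and Hmcn1 are shown because these genes carried the Irx3-only, opposite and same-direction patterns. They run from 250 bases before to 50 bases after the gene's start and come from RefSeq (GRCm38.p6), at chr6:87428744-87429043 on the + strand, chr8:92356071-92356370 on the - strand and chr1:150993386-150993685 on the - strand, with a GATA motif (AGATAA) in capitals.
Bmp10: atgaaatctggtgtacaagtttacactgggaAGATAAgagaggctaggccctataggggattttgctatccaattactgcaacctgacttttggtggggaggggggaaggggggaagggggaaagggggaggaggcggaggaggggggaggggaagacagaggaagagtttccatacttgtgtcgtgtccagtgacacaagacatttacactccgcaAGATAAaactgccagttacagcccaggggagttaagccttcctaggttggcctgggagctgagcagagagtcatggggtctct
Crnde: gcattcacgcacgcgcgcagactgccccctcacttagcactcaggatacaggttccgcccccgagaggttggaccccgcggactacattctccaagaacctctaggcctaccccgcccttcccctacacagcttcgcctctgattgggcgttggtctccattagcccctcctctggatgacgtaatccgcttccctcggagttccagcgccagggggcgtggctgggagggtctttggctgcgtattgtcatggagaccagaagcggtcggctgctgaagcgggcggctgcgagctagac
Hmcn1: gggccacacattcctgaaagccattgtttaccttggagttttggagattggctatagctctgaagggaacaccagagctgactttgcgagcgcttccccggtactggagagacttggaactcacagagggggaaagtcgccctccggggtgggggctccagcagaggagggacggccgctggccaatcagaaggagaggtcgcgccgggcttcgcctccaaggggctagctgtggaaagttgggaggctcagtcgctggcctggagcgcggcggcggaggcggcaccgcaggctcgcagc
Searched on both strands, AGATAA occurred 219 and 33 bases before the start in Bmp10 and not in these windows of Crnde or Hmcn1, and 11.2% of 32851 promoters of this length held it. ACANNTGT, the palindromic Iroquois motif, was in 0 of these 3 and in 7.38% of all promoters. Of 61 genes named by rank or in advance, 49 had a promoter in the table, and 2 of these held ACANNTGT, 3 AGATAA, 3 the Nkx2-5 motif TNAAGTG (11.5% of all) and 0 the T-box motif AGGTGTGA (1.28% of all). A match is a description of the letters and not a site of binding.

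Gene lists of heart cell types and pathways were described by their counts beside those of all 19931 genes, of which 50.3% had an interaction above 0, 374 (1.88%) were higher and 424 (2.13%) lower at an unadjusted p under 0.05. Mitotic genes lay above additivity most widely. Of the 23 genes of G2 and mitosis, 20 had an interaction above 0 and 5 were higher at that p, with a median of 0.22 that ran from 0.11 to 0.36 with 1 array left out and was 0.28 with the sarcomere term. Cenpe, a centromeric kinesin gene, read 9.90, 9.92 and 10.05 in the reference, 9.69, 9.55, 9.49 and 9.48 in Irx3-/-;Irx5+/-, 10.20, 9.84 and 9.85 in Irx5-/- and 9.86, 10.06, 10.05 and 10.24 in double mutants. Irx3-/-;Irx5+/- arrays lay below all others (interaction 0.49 ± 0.16), and Kif20a, a kinesin of cytokinesis, had an interaction of 0.66 ± 0.23. The list's averaged Irx5 loss was above 0 for all 23 genes (15 higher at an unadjusted p under 0.05, against 8.22% of all genes), and its averaged Irx3 loss had a median of 0.03. DNA replication genes had a median interaction of 0.06 (14 of 24 above 0), with Mcm2, a helicase subunit, at 0.62 ± 0.24. The 14 epicardial genes had the highest median interaction of any list, 0.27, with 8 above 0 and 0 at an unadjusted p under 0.05. Their median ran from -0.04 to 0.48 with 1 array left out and was -0.10 with the sarcomere term.

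Muscle and metabolic genes lay below additivity as lists but moved with particular arrays. The sarcomere list had a median interaction of -0.52, with 2 of 31 above 0 and 0 at an unadjusted p under 0.05, after averaged losses with medians of 0.54 for Irx3 (30 above 0, 11 higher at that p against 2.23% of all genes) and 0.61 for Irx5 (30 above 0, 12 higher). That median was -0.01 without Irx5+/- replicate 3, -1.0 without Irx5+/- replicate 1 and 0.28 without both Irx5+/- replicate 3 and Irx5-/- replicate 2. Oxidative phosphorylation (median -0.24, 1 of 22 above 0) and calcium handling (median -0.28, 3 of 15 above 0) likewise turned to 0.19 and 0.29 without these 2 arrays. Fatty acid use had a median of -0.46 (2 of 16 above 0, 3 lower at that p) and 0.01 without them. In each of these lists Irx5+/- replicate 3 was the lowest of all arrays and Irx5-/- replicate 2 the highest (-1.52 and 0.82 for sarcomere). Leaving out the lowest reference array and the highest Irx5-/- array raises the interaction by construction. The rise without both therefore cannot decide whether these lists lie below additivity. Of the fatty acid genes, Cpt1a, the mitochondrial carnitine transferase, and Ppara, its nuclear receptor activator, had interactions of -0.42 ± 0.17 and -0.68 ± 0.26.

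Immediate early genes had a median interaction of -0.23 (6 of 24 above 0, 2 lower at an unadjusted p under 0.05) and -0.03 without Irx5-/- replicate 1. Egr1, a zinc finger gene of the early stimulus response, read 10.64, 10.05 and 10.13 in the reference, 10.14, 10.34, 10.63 and 10.04 in Irx3-/-;Irx5+/-, 11.16, 10.60 and 9.78 in Irx5-/- and 9.40, 8.51, 9.88 and 9.66 in double mutants. Double mutants lay below all arrays but Irx5-/- replicate 3 (interaction -1.17 ± 0.48), and Nr4a2, an orphan nuclear receptor, had an interaction of -0.65 ± 0.25. Of matrix genes (27, median -0.06), Lama2, the laminin alpha 2 chain, had double-mutant levels of 8.66 to 9.0 below all other arrays (9.02 to 10.30) and an interaction of -0.81 ± 0.30. Of cushion and valve mesenchyme genes (27, median 0.09, 15 above 0), Hapln1, a hyaluronan link protein, had an interaction of 1.35 ± 0.49. Kcne3, a potassium channel subunit, had an interaction of 1.47 ± 0.47. Lists for liver, lung and foregut, skeletal muscle, neural crest and macrophages had median interactions from -0.08 to 0.13 and 0 members at an unadjusted p under 0.05.

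**Figure D5:**
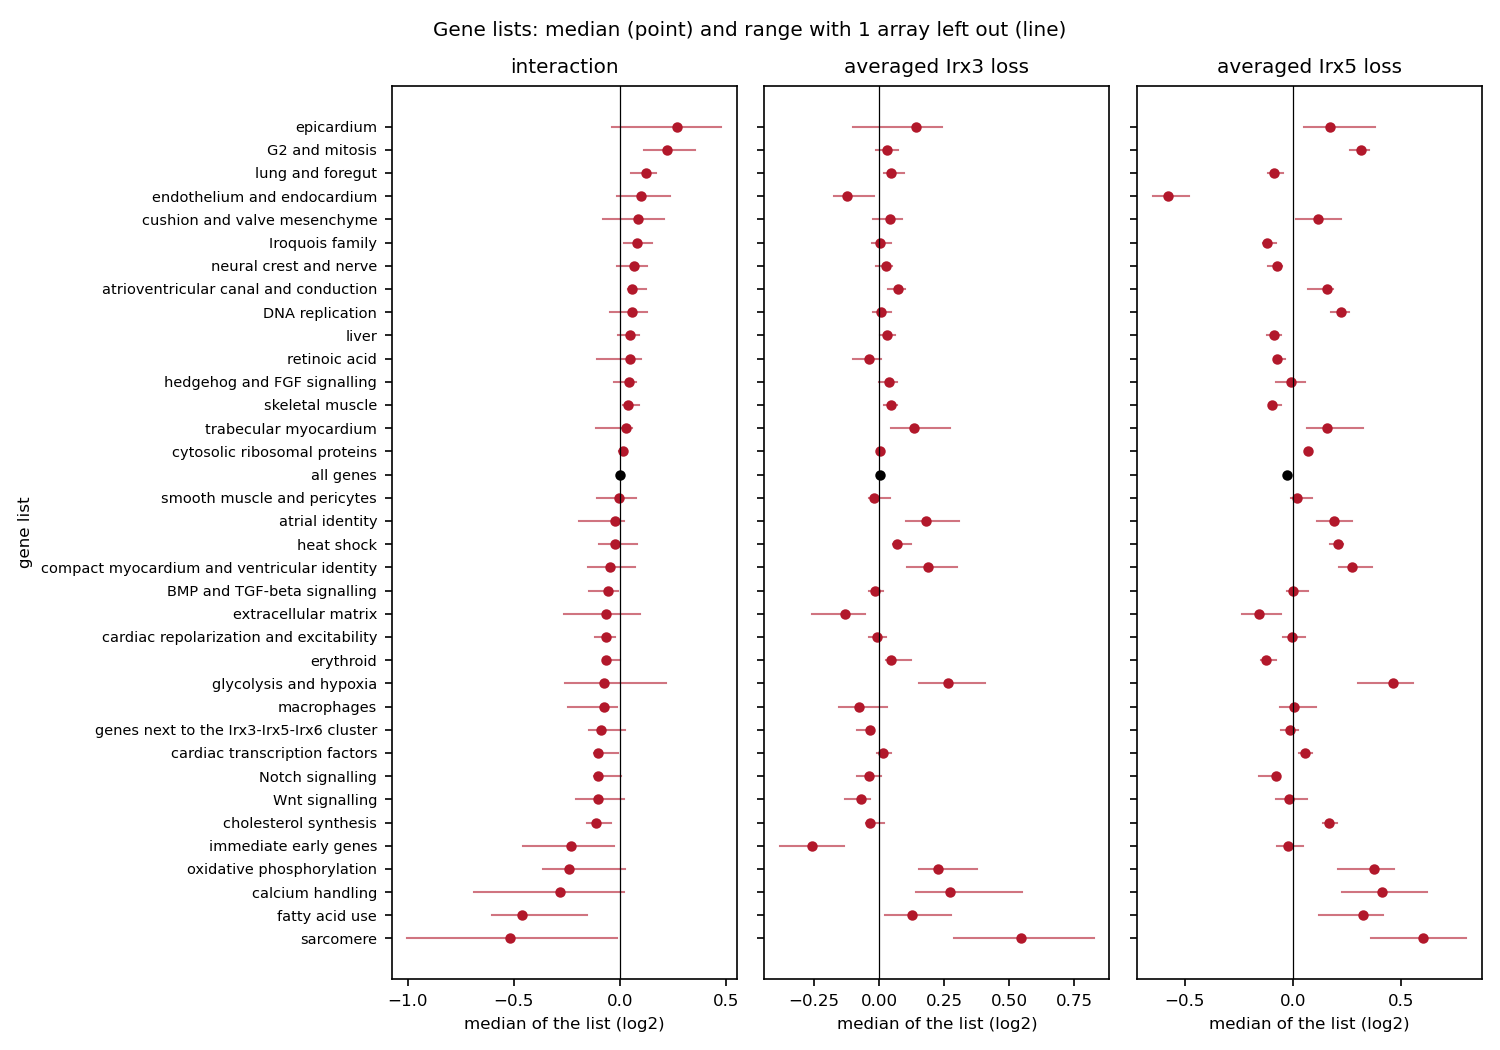
Median interaction, averaged Irx3 loss and averaged Irx5 loss (log2) of each gene list, with a line from the lowest to the highest median when 1 array is left out and all genes in black. In the leave-outs the median interaction runs from 0.11 to 0.36 for the G2 and mitosis list and from -1.0 to -0.01 for the sarcomere list. Both keep their sign, as do lists such as lung and foregut (0.05 to 0.17) and fatty acid use (-0.60 to -0.15). Others, such as calcium handling (-0.69 to 0.02), do not.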

How the data were processed

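Total RNA of mouse E12.5 hearts was hybridized to 14 Affymetrix arrays, 1 per sample, in 4 genotypes of 3, 4, 3 and 4. Per the file headers, the authors computed the deposited log2 intensities with RMA from the R package affy, normalizing all arrays together, dropped probe sets without a group mean over 3 from their statistics, and used limma with Benjamini-Hochberg adjustment. No version or genome build was named in the sources read. Values were used as deposited, and 0 of 28763 probe sets had no group mean above 3. Symbols came from the platform's probe table (1 symbol for 21776, several for 1592, none for 5395), and 21685 of the 21776 matched a RefSeq gene by ID. Where a gene had several probe sets, that with the highest mean stood for it in the lists.

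limma 3.58.1 (R 4.3.3) was fitted with a mean per genotype (10 residual and 3.24 prior degrees of freedom, median residual SD 0.188), 2-sided, with adjustment over all 21776 probe sets. The fit was tested on simulated data. The number of arrays limits the precision, since intensities carry no depth. Replicate numbers were not used to pair the samples. Same-numbered arrays of different genotypes had deviations with a median correlation of -0.05, and 4 of 19 were above 0.1. For differently numbered arrays the median was 0.02, and 13 of 54 were above 0.1. These correlations cannot tell whether same-numbered arrays share a batch, which the labels do not state.

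Members and gene lists were chosen with earlier results of these data known. Named genes were Irx1 to Irx6, Bmp10, Gja5, Kcnd2, Kcnip2, Hmcn1, Fdft1 and Klhl23, the 12 smallest interaction p per direction, the 8 largest per class of the sort and up to 2 per list. Predicted genes, receptors of smell and small RNAs were left out of ranks. Only some genes of that rule are described. Arrays were left out in turn, and other normalizations, filters, variance models, a replicate block, sex and sarcomere terms were tried. Sex was read from Xist and Y-linked genes. Male arrays were Irx5+/- replicate 3, Irx3-/-;Irx5+/- replicate 1, Irx5-/- replicates 1 and 3 and Irx3-/-;Irx5-/- replicate 3. Sex was thus unbalanced, and Irx5-/- was the only group with more male than female arrays.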

Additional observations from a re-analysis of the deposited data

Results flagged for a closer look

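Each group of 4 arrays was checked for an array far from the others in the 68 genes, by the gap to its nearest neighbour over the group's range against Dixon's critical value. Of 136 groups, 6 held such an array, and chance gives about 1 in 20.

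In Irx3-/-;Irx5+/- hearts Mis18a read 7.31 in replicate 2 against 7.76 to 7.82 in the others, and Plscr1 read 7.67 in replicate 1 against 8.01 to 8.04. In double mutants Lrig2 read 7.96 in replicate 2 against 8.14 to 8.16, Gstm5 10.20 in replicate 3 against 10.44 to 10.47 and Ptchd1 3.87 in replicate 1 against 4.07 to 4.11. Apmap read 8.75 in double-mutant replicate 2, above 8.45 to 8.49 in the others.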

How the results depend on the processing

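The interaction called 0 probe sets under all 25 alternatives, and 773 to 1061 were at an unadjusted p under 0.05 with 1 array left out, against 445 among probe sets above the median level. The averaged Irx3 loss called 0 to 1 with 1 array left out and 1 after a second quantile normalization, and 769 to 1984 were at an unadjusted p under 0.05 in the leave-outs, 662 above the median level and 1727 without Irx5+/- replicate 3 and Irx5-/- replicate 2. The averaged Irx5 loss called 0 to 38 with 1 array left out, 3 with 1 probe set per gene, 24 after quantile normalization, 18 with array weights, 0 with the sarcomere term and 0 without those 2 arrays, and 2176 were at an unadjusted p under 0.05 above the median level. Double mutants against the reference had 8 to 84 calls in the leave-outs, 4 with 1 probe set per gene, 28 above the median level, 27 after quantile normalization, 10 with the sex term and 0 with the sarcomere term. Irx5 loss without Irx3 had 0 to 15 in the leave-outs, 1 with 1 probe set per gene, 9 above the median level, 8 with a trended robust prior and 11 with array weights. Alternatives for these last 2 comparisons were chosen after seeing the data.

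Same-direction probe sets numbered 163 to 570 and opposite ones 15 to 93 in the leave-outs. At an unadjusted p under 0.01 they were 52 and 3, and by single losses 536 and 1. With the sex term they were 236 and 51. Opposite ones were 15 above the median level, 26 after quantile normalization and 21 with the sarcomere term. A replicate block left 1 call for the averaged Irx5 loss, 2 for the double mutants and 0 for Irx5 loss without Irx3. Whether the replicate numbers stand for a shared batch is not known.

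Of 104 gene results, 8 changed sign under at least 1 alternative. For 7 these were interactions between -0.21 and 0.22 with all arrays, and the other was the averaged Irx5 loss of Myoz2. Interactions with 1 array left out ran from -0.11 to 0.07 for Irx2, -0.01 to 0.10 for Irx3, -0.19 to 0.47 for Irx4, -0.05 to 0.25 for Irx5 and -0.01 to 0.44 for Bmp10. Irx2 was 0.01 with medians subtracted, 0.02 after quantile normalization, 0.03 with the sarcomere term and 0.04 without the 2 arrays, where Irx6 was -0.01 and Kcnd2 0.02. Irx3 was -0.01 with array weights, Irx5 -0.01 with the sex term, and the averaged Irx5 loss of Myoz2, 0.95 without it, was -0.03 with the sarcomere term (0.61 to 1.32 in the leave-outs). Myoz2 is a member of the sarcomere list, so that term contains its own signal. The causes were not tested. Intensities carry no depth, and 3 or 4 arrays a group give a median SE of 0.20.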
